A study of Mus musculus with 2 samples.

Results

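The genes described here encode respiratory complexes II, III, IV and V of the mitochondrial inner membrane, together with cytochrome c and the assembly factors named after these complexes. They were picked out by gene symbol, under a rule written with earlier results of these data known: succinate dehydrogenase and its assembly factors (Sdh), ubiquinol-cytochrome c reductase (Uqcr and Cyc1), cytochrome c (Cycs), cytochrome oxidase subunits 5, 6b, 6c, 7b and 7c with factors 10, 11, 15, 17, 18 and 19 (Cox), and ATP synthase (Atp5). The tissue-specific cytochrome oxidase families 4, 6a, 7a and 8 were not among them. The rule found 48 of the 18193 genes that carried a symbol of their own, read by 97 probe sets, and 47 of the 48 had a signal above the floor described next. The exception was Cox7b2.

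RNA came from diaphragm muscle of C57/BL6 mouse embryos at E18.5, with 1 array labelled RP58-/- (KO) and 1 array labelled RP58+/+ (WT). RP58, now named Zbtb18, is a zinc finger repressor of transcription. The labels state neither how the allele was made nor how many embryos gave each sample. With 1 array per genotype there is no spread between embryos, no test was possible, and the precision of every value is limited by that number of arrays.

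Values are log2 RMA signals, and a difference is always KO minus WT on that scale. A gene was read from its probe set with the highest mean of both arrays. The floor was the 40th percentile of those means over all probe sets (log2 5.52), which left 14093 genes. A gene is called lower or higher here when it differed by at least 1.5-fold (0.58 on the log2 scale), which is a rule of size and not of significance. Probe sets of a gene disagreed with a pooled SD of 0.29 over the 24 members read by several probe sets above the floor, and of 0.28 over all 5675 such genes.

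The respiratory chain passes electrons from metabolites to oxygen. Complex II (succinate dehydrogenase) takes them from succinate, an intermediate of the citric acid cycle, and gives them to ubiquinone. Complex III hands them to cytochrome c, and complex IV (cytochrome oxidase) hands them to oxygen. Complexes III and IV pump protons, and complex V (ATP synthase) lets the protons flow back through a rotating ring to make ATP. All the members are nuclear genes whose proteins are imported into mitochondria, and muscle fibres, which contract on ATP, are rich in them.

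Upstream sequence is given for 7 members, 4 of them to show what the motif matches look like and 3 to set genes for the same protein side by side. Each is the 250 bases before the annotated start site, from RefSeq on GRCm38.p6, in the direction of the gene, and 38 of the 48 members were matched by symbol in that table. Capitals mark matches, on either strand, to 4 motifs: GCGCANGCG, the core of the site of the respiratory regulator NRF1 (nuclear respiratory factor 1), CCGGAAG, a site of ETS factors such as GABP (nuclear respiratory factor 2), AAGATGGC, a site of YY1, and CCAAT, the box bound by NF-Y. Sdhaf4, Sdha and Cycs were chosen because their signals were lower by 1.5-fold and their promoters hold NRF1 matches, Atp5j for its ETS and YY1 matches (of its 2 listed start sites, the one with matches), and Atp5g1, Atp5g2 and Atp5g3 because they encode the same mature ring subunit. A set picked in this way does not show what lower genes share, and Atp5g2 and Atp5g3 were within 1.5-fold.
Sdhaf4, chr1:24005641-24005890, strand -: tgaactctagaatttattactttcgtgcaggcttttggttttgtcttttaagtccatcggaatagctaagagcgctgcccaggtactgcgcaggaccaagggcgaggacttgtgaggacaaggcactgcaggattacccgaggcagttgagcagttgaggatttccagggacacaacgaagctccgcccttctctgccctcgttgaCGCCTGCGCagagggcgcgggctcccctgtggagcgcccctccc
Sdha, chr13:74350241-74350490, strand -: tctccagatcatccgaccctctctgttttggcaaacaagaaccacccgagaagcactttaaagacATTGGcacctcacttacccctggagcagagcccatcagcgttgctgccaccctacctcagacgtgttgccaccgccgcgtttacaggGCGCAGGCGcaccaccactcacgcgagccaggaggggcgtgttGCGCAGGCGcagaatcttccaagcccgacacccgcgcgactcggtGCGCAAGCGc
Cycs, chr6:50566570-50566819, strand -: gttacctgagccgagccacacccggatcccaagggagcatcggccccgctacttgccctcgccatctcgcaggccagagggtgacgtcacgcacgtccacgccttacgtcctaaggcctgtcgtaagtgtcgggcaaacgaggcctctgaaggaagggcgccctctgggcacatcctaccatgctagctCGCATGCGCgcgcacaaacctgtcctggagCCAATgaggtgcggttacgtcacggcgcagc
Atp5j, chr16:84834977-84835226, strand -: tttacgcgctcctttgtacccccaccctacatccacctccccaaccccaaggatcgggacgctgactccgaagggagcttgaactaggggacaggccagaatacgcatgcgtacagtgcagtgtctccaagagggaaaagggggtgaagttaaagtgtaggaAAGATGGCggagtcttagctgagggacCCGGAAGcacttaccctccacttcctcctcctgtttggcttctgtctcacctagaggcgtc
Atp5g1, chr11:96075632-96075881, strand -: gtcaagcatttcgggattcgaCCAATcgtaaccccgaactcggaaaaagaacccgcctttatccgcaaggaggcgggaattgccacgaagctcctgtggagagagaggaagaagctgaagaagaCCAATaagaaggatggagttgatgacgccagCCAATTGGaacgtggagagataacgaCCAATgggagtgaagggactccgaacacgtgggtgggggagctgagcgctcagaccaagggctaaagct
Atp5g2, chr15:102671048-102671297, strand -: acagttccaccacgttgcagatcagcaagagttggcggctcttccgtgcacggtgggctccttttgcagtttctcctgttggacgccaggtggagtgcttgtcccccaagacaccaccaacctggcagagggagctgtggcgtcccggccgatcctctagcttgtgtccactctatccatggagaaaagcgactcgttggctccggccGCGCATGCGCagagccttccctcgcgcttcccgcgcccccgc
Atp5g3, chr2:73911327-73911576, strand -: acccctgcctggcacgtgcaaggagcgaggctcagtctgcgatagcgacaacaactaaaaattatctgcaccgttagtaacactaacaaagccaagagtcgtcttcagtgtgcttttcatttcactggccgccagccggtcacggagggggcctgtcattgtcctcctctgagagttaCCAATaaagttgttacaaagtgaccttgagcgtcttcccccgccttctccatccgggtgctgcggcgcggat

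Nearly the whole set had a lower signal on the KO array, by a modest and similar amount. Of the 47 members above the floor, 46 were below 0, where 50.4% of all 14093 genes were. The median member differed by -0.48 (1.39-fold lower), whereas the median of all genes was -0.003. By the 1.5-fold rule 13 members (27.7%) were lower, against 6.51% of all genes, and 1 (2.13%) was higher, against 3.83%. The quartiles of the members were -0.60 and -0.37, and the SD over members was 0.25, close to the disagreement between probe sets of a single gene, while the SD over all 14093 genes was 0.41. No member reached 2-fold at its brightest probe set in either direction, and 38 of 47 were lower by at least 0.32 on the log2 scale, against 16.1% of all genes. These directions depend on the arrays' scaling: on scaling to the poly-A control RNAs, which were themselves lower on the KO array, the members' median turned to 0.19 and the median of all genes to 0.66, with 3 of 47 members higher against 61.0% of all genes. The differences printed here are as deposited, without centring, and the median gene stood at -0.003. Subtracting that median would put Cycs inside 1.5-fold and leave 12 members lower.

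**Figure D1:**
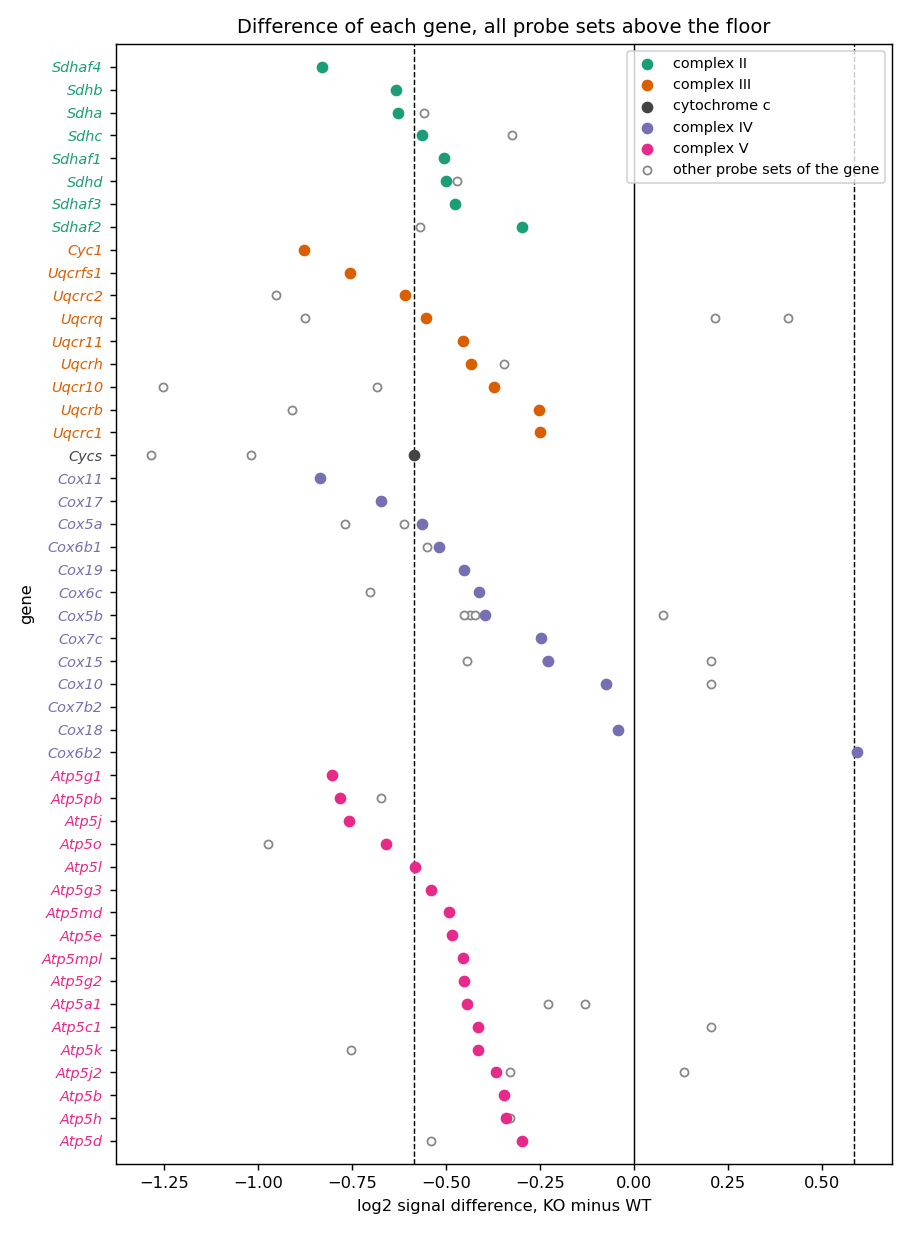
Log2 signal difference, KO minus WT, of each of the 48 genes, 1 array per genotype; filled points are the brightest probe set of a gene, coloured by complex, and open points are its other probe sets above the floor. The solid line is 0 and the dashed lines mark 1.5-fold. Of the 47 filled points 46 lie left of 0, and 13 lie at or beyond the left dashed line; Cox7b2 has no point because its signal was under the floor.

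In complex II both catalytic subunits were lower at their brightest probe sets, and both membrane subunits were below 0 but within 1.5-fold. All 8 of its genes were below 0, 3 were called lower, and the median was -0.53. Sdha, the flavoprotein that oxidises succinate, had a signal of 10.14 on the KO array and 10.77 on the WT array, a difference of -0.63. Sdhb, the iron-sulphur subunit that carries the electrons onward, had 11.39 on the KO array and 12.03 on the WT array, also -0.63. The membrane anchors that hold the ubiquinone site differed slightly less: Sdhc stood at 9.61 on the KO array and 10.18 on the WT array (-0.56), and Sdhd at 11.31 on the KO array and 11.81 on the WT array (-0.50). The 4 subunits thus lay within 0.13 of each other. The second probe set of Sdha, with the same mean signal of 10.45, gave -0.56, which is within 1.5-fold and like Sdhc. The split between catalytic and membrane subunits therefore rests on the choice of probe set for Sdha. The second probe set of Sdhc gave -0.32 and that of Sdhd -0.47.

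The factors that assemble complex II were less alike. Sdhaf4, the chaperone that binds the flavinated form of the Sdha protein, was among the lowest of all members, at 9.95 on the KO array and 10.78 on the WT array (-0.83, 1.78-fold lower). Sdhaf2, which is needed to attach the flavin to Sdha, differed by -0.30 at its brightest probe set and by -0.57 at the other. Sdhaf1 and Sdhaf3, both needed for the iron-sulphur subunit, were at -0.50 and -0.48. Each of the 4 was read above the floor on both arrays.

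At the brightest probe sets of complex III, the redox subunits Cyc1 and Uqcrfs1 differed more than most of the small subunits around them. Each of these 2 was read by 1 probe set. All 9 genes were below 0, 3 were called lower, and the median was -0.45. Cyc1, the haem-bearing cytochrome c1, had 11.66 on the KO array and 12.54 on the WT array, which at -0.88 (1.84-fold lower) was the lowest of the 47 members, and only 2.92% of all 14093 genes were lower still. Uqcrfs1, the Rieske iron-sulphur protein, had 11.17 on the KO array and 11.92 on the WT array (-0.75). The core proteins were unequal, with Uqcrc2 at 11.10 on the KO array and 11.71 on the WT array (-0.61) and Uqcrc1 at 10.72 on the KO array and 10.97 on the WT array (-0.25). Cytochrome b, the other redox subunit, is encoded in mitochondrial DNA and was not analysed here.

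The small subunits of complex III, which carry no redox centre, were all within 1.5-fold at their brightest probe sets. The values were -0.55 for Uqcrq, -0.45 for Uqcr11, -0.43 for the hinge protein gene Uqcrh, -0.37 for Uqcr10 and -0.25 for Uqcrb. Their other probe sets widened the range. Uqcr10 had further probe sets at -0.68 and -1.25, and Uqcrb, whose brightest probe set read 13.78 on the KO array and 14.03 on the WT array near the top of the scale, had another at -0.91, read at 11.30 on the KO array and 12.21 on the WT array. The 4 probe sets of Uqcrq ran from -0.87 to 0.41, the 3 dimmer ones lying close to the floor. On the mean over its probe sets Uqcr10 was at -0.77, beside -0.75 for the single probe set of Uqcrfs1. The order of Uqcrfs1 and the small subunits therefore rests on the choice of probe set.

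Cytochrome c itself stood at the edge of the size rule on its brightest probe set and beyond it on the dimmer ones. Cycs, the somatic gene for this mobile carrier, had 13.07 on the KO array and 13.66 on the WT array at its brightest probe set (-0.59). The next probe sets gave 12.19 on the KO array against 13.20 on the WT array (-1.02), and 11.22 on the KO array against 12.50 on the WT array (-1.28). All 3 were lower on the KO array, and their mean was -0.96. The gene nearest to the threshold from the other side was Atp5l at -0.58.

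In complex IV 11 of 12 genes above the floor were below 0, 2 were called lower and 1 higher, and the median was -0.40. All 5 subunits other than the testis isoforms were below 0 and within 1.5-fold. Cox5a had 12.76 on the KO array and 13.32 on the WT array (-0.56), and its other probe sets stood at -0.77 and -0.61. Cox6b1, which faces cytochrome c on the outer side of the complex, had 13.06 on the KO array and 13.57 on the WT array (-0.52). Cox6c stood at -0.41, with -0.70 on its second probe set, and Cox5b, the zinc-binding subunit, at -0.40, with its 4 bright probe sets between -0.45 and -0.40 and a dim one at 0.08. Cox7c was read by dim probe sets only, of which 1 passed the floor, at 6.35 on the KO array and 6.60 on the WT array (-0.25).

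The assembly factors of complex IV ranged from -0.83 to -0.04. Among these members, those that handle copper lay at the low end. Cox11, which delivers copper to the catalytic subunit, had 8.28 on the KO array and 9.12 on the WT array (-0.83). Cox17, the copper chaperone at the head of that route, had 11.18 on the KO array and 11.86 on the WT array (-0.67). Cox19, a partner in copper delivery, stood at -0.45. The low end did not extend to the copper factors Sco1 (0.09) and Sco2 (-0.19), which the symbol rule leaves out. The enzymes that make haem A were closer to 0. Cox10 was at 7.37 on the KO array and 7.45 on the WT array (-0.08), but its other probe set above the floor was at 0.20 and the mean of both was 0.06. Cox15 was at -0.23 with other probe sets from -0.44 to 0.21. Cox18, which inserts a subunit made inside the mitochondrion into the membrane, was at -0.04. The haem and insertion factors had signals from 7.37 to 8.79, and the difference between the groups of factors was not tested.

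The single member with a higher signal on the KO array was Cox6b2, the isoform of Cox6b1 known from testis. Its only probe set read 7.97 on the KO array and 7.37 on the WT array (0.59, just past the size rule). The other testis isoform, Cox7b2, was under the floor on both arrays, at 3.81 on the KO array and 3.86 on the WT array. The sample labelled KO also carried Y-linked signal, with Eif2s3y at 8.58 on the KO array and 3.59 on the WT array, so sex and genotype cannot be told apart here. None of the 48 genes lies on a sex chromosome, and they are spread over 16 chromosomes. An effect of sex on their signals was not tested.

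**Figure D2:**
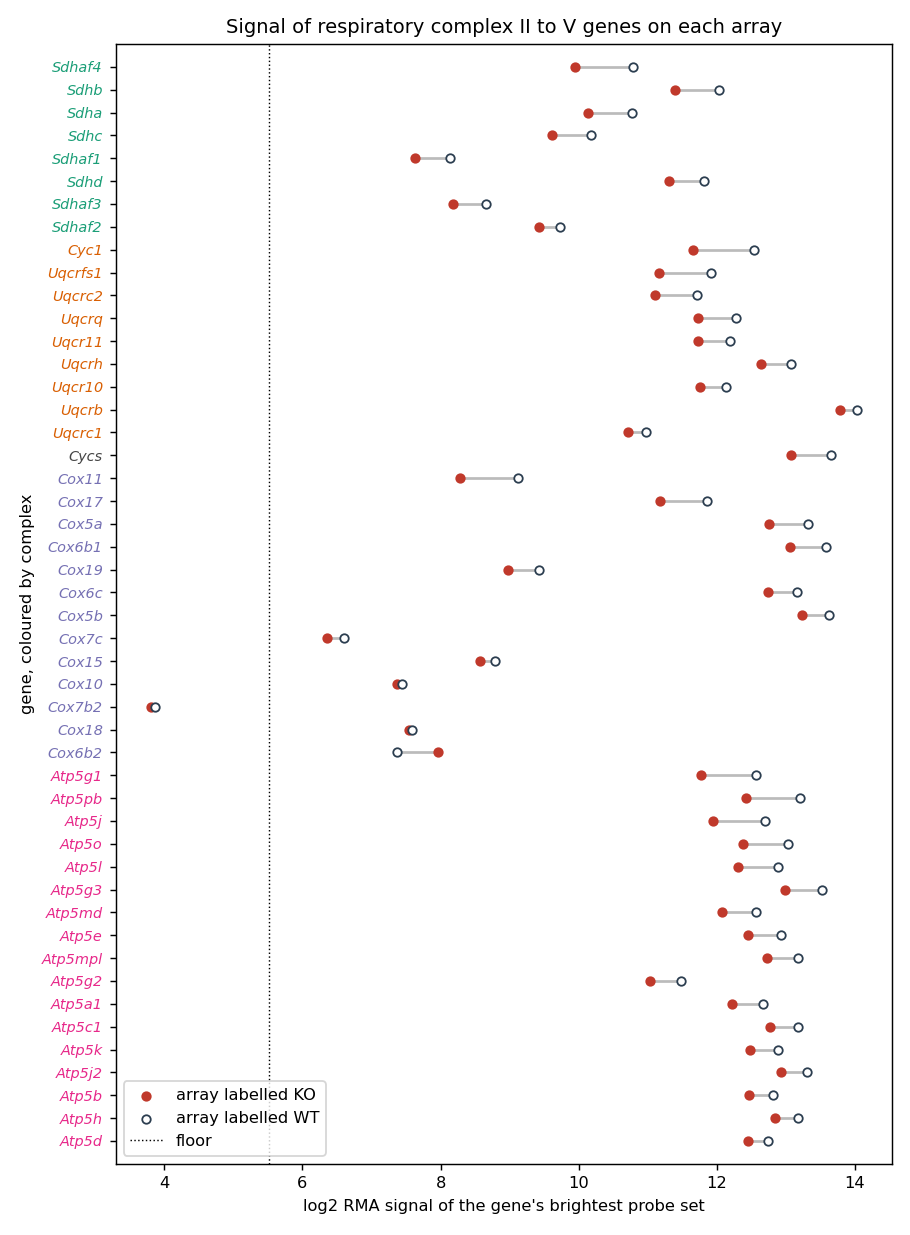
Log2 RMA signal of each gene's brightest probe set on the array labelled KO (filled) and the array labelled WT (open), 1 array each; gene names are coloured by complex in the same order as in the plot of differences, and the dotted line is the floor at 5.52. Signals of different genes come from different probe sets and are not comparable between rows. Cox6b2 is the row above the floor where the KO point lies to the right of the WT point.

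In complex V 3 of the 4 genes called lower encode the peripheral stalk. All 17 genes were below 0 at their brightest probe sets, 13 of them within 1.5-fold, and the median was -0.45. The gene with the lowest value, Atp5g1, belongs to the ring. The stalk holds the catalytic head still while the ring turns. Its subunit b gene Atp5pb had 12.42 on the KO array and 13.20 on the WT array (-0.78). Atp5j, for coupling factor 6, had 11.94 on the KO array and 12.70 on the WT array (-0.76). Atp5o, for the subunit that joins stalk and head, had 12.38 on the KO array and 13.03 on the WT array (-0.66), with -0.97 on its second probe set. The fourth stalk gene, Atp5h for subunit d, differed less, at 12.84 on the KO array and 13.18 on the WT array (-0.34), and its second probe set agreed at -0.33.

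All 5 genes of the catalytic head and the central shaft were below 0 and within 1.5-fold. Atp5e was at -0.48, the alpha subunit gene Atp5a1 at -0.44, the gamma subunit gene Atp5c1 at -0.42 (with a dim second probe set at 0.20), and the beta subunit gene Atp5b, which carries the catalytic sites, at -0.35 with 12.47 on the KO array and 12.81 on the WT array. Atp5d had -0.30 at its brightest probe set and -0.54 at the other. The median of the head genes was -0.42 and that of the 4 stalk genes -0.71, and apart from Atp5h every stalk gene lay below every head gene. Both probe sets of Atp5h lay within the range of the head genes, and Atp5j was read by 1 probe set. The distance between the medians is close to the probe set SD of 0.29, and the contrast was not tested.

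The ring genes had unequal values, although their products are the same after import. Atp5g1 had 11.77 on the KO array and 12.57 on the WT array (-0.80, 1.74-fold lower), Atp5g3 had 12.99 on the KO array and 13.53 on the WT array (-0.54), and Atp5g2 had 11.03 on the KO array and 11.48 on the WT array (-0.45). Each was read by a single probe set above the floor, so the gap of 0.35 between Atp5g1 and Atp5g2 has no repeat reading. The probe set SD of 0.29 is for 1 reading, and a gap between 2 readings varies more than that. The gap therefore cannot be told from disagreement between probe sets. Genes of the membrane base, where synthase dimers meet, were within 1.5-fold, from -0.58 for Atp5l through -0.49 for Atp5md, -0.45 for Atp5mpl and -0.41 for Atp5k to -0.37 for Atp5j2. The other probe sets of Atp5j2 stood at -0.33 and, for a dimmer one, 0.13.

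The 3 ring promoters printed above also differ in their letters. That of Atp5g1 holds 5 CCAAT matches and no NRF1 match, and 2 of the 5 overlap on opposite strands. At least 5 were found in 0.213% of 32851 promoters of the same length, a share worked out after Atp5g1 was picked. The count is not particular to Atp5g1, because the promoter of Atp5b, a gene at -0.35, holds 5 as well. That of Atp5g2 holds overlapping NRF1 matches on both strands, the first starting 42 bases before the start site, and no CCAAT, and that of Atp5g3 a single CCAAT. The Sdha promoter carries 3 NRF1 matches, which begin 98, 55 and 10 bases before the start, that of Cycs has 1 at 61 and that of Sdhaf4 has 1 at 44.

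Over the 38 members with a listed promoter, 9 (23.7%) held the NRF1 letters, against 5.86% of all 27025 genes in the table and 10.8% of the 11304 of them above the floor. The ETS letters were in 11 (28.9%), against 7.83% of all genes and 13.5% of those above the floor. YY1 letters were in Atp5j alone (2.63%, against 1.83% of all genes and 2.20% of those above the floor). CCAAT was in 18 (47.4%, against 37.5% of all genes and 39.7% of those above the floor). Member promoters were richer in G and C, with a median of 57.6% against 52.4% for all promoters, and the motif shares were not adjusted for this. TATAAA was in none of the 38 and in 7.59% of all promoters. The median difference was -0.50 for members with NRF1 letters and -0.45 for those without, -0.48 with and -0.45 without ETS letters, and -0.49 with and -0.45 without CCAAT. Atp5j, the member with YY1 letters, was at -0.76. The NRF1 order depends on the form of the motif. A form 1 base longer was tried first, and the 9-letter form was adopted after its results were seen. The longer form was in 6 members (15.8%), against 4.23% of all genes and 7.98% of those above the floor, with a median of -0.43 for members with it and -0.48 for those without. Cycs, Sdhaf4 and Atp5l hold the 9-letter form only. A match is a run of letters only, and binding was not measured.

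Many members were bright genes, so these were also set beside genes of like signal. A mean signal of 12 or more, a limit chosen after the data were seen, was reached by 25 members and 241 genes in all. All 25 members were below 0 and 6 (24.0%) were lower by 1.5-fold, with a median of -0.48. Of the 241 genes, which include these members, 52.3% were below 0 and 14.5% were lower by 1.5-fold. Of the 216 outside the members 46.8% were below 0 and 13.4% were lower, with a median of 0.03. The 22 members under the limit had a median of -0.47. After loess centring on mean signal 11 members were lower and the median was -0.45.

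**Figure D3:**
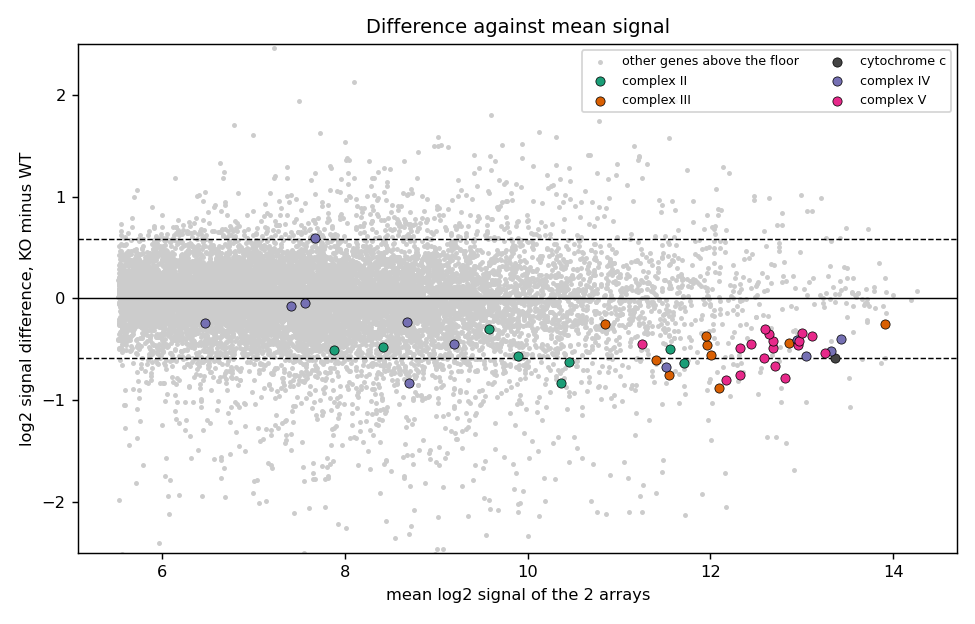
Log2 signal difference, KO minus WT, against the mean log2 signal of the 2 arrays, for 14093 genes above the floor (grey) and the 47 members (coloured by complex), each from its brightest probe set. The vertical axis stops at 2.5 in both directions, beyond which 19 genes lie, none of them a member; dashed lines mark 1.5-fold. The bright members form a band below 0 at the right, while the grey genes of the same signal lie on both sides of 0.

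The brightest probe set of a gene was not always the one with the largest difference. In 14 of the 24 members with several probe sets above the floor (58.3%), the next brightest probe set was lower than the brightest, against 47.4% of 5675 genes. The median was -0.54 at the next brightest and -0.42 at the brightest probe set of these members. In 6 further genes (Cox5a, Cox6c, Uqcrq, Uqcr10, Uqcrb and Atp5k) another probe set passed 1.5-fold although the brightest did not, which brings the members with any such probe set to 19. Counting any probe set gives a gene with several of them more chances to pass. The share of all genes by this count was not computed. Of all 84 member probe sets above the floor, 76 were below 0, and the share over all probe sets was not computed.

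Complex I is the entry point for electrons from NADH, and its list here was made from symbols that begin with Nduf. That list holds assembly factors too, and a gene on it, Ndufa4 and Ndufa4l2 included, need not be a subunit of complex I. The list differed by a like amount, with a median of -0.56 and 40 of 43 genes below 0. Of these 43, 19 (44.2%) were called lower and 1, Ndufa4l2 (0.62), higher. Over all genes 50.4% were below 0, 6.51% were lower and 3.83% higher. Mitochondrial ribosomal proteins had a median of -0.38 with 70 of 76 below 0 and 23 (30.3%) called lower. Cytosolic ribosomal proteins had a median of 0.02, with 20 of 46 below 0, 2 (Rpl3l and Rpl12, 4.35%) lower and none higher. Among the cytochrome oxidase families left out by the rule, the muscle isoforms Cox7a1 (3.99-fold lower), Cox6a2 (2.18-fold) and Cox8b (2.01-fold) lay beyond every member, whereas their widely expressed partners differed by -0.33 (Cox7a2), -0.04 (Cox6a1) and 0.18 (Cox8a) on the log2 scale. Cox4i1 was at -0.42, and Cox4i2 read 6.75 on both arrays. The only mitochondrially encoded gene read here, ND5 of complex I, went the other way, at 13.14 on the KO array and 12.42 on the WT array (0.72). It has 1 probe set.

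Assembly factors named outside the symbol rule were lower in part, with a median of -0.38. Of 26, 23 were below 0 (88.5%, against 50.4% of all genes). By the size rule 6 were called lower (23.1%, against 6.51% of all genes). These 6 were Tmem70 (-1.05) and Atpaf1 (-0.82), which help assemble ATP synthase, Fmc1 (-0.70), Hccs (-0.89), which attaches haem to cytochromes c and c1, Cox20 (-0.82), and Uqcc2 (-0.65), a complex III factor. The 3 above 0 were Atpif1, for the inhibitor protein of ATP synthase, at 0.10, and the oxidase factors Surf1 at 0.04 and Sco1 at 0.09. The oxidase factors Sco2 and Coa3 were at -0.19 and -0.28.

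Regulators of mitochondrial biogenesis had a median of -0.25. Of 24, 4 were called lower (16.7%, against 6.51% of all genes) and none higher (against 3.83%). The coactivator Ppargc1a had 6.65 on the KO array and 7.28 on the WT array (-0.63), and the nuclear receptor Esrra, a partner of that coactivator, had 7.47 on the KO array and 8.20 on the WT array (-0.72). Tfb2m, a factor for transcription of mitochondrial DNA, was at -0.78, and Ssbp1, which binds that DNA as a single strand, at -0.62. Nrf1 was at 7.31 on the KO array and 7.37 on the WT array (-0.06), while Gabpa, which encodes the DNA-binding subunit of GABP, was at -0.47. The related coactivators Ppargc1b and Pprc1 were at -0.16 and 0.02.

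Markers of muscle and of other tissues differed along with the set. The counts that follow stand beside 6.51% of all genes called lower and 3.83% called higher. In a list of 5 to 7 genes a single call exceeds both shares. All 17 skeletal muscle markers were above the floor, of which 15 were called lower and none higher, with a median of -1.42, and their summed linear signal was 48140.5 on the KO array and 102073 on the WT array. Of 16 liver markers 11 were called higher and none lower (median 0.84, summed signal 179912 on the KO array and 118986 on the WT array), and albumin (Alb) was near the top of the scale on both, at 14.30 on the KO array and 14.23 on the WT array. The medians of lung epithelium (0.59, 4 of 7 higher), mesothelium (0.53, 4 of 10) and leukocytes (0.49, 5 of 12) were also above 0, and none of these markers was called lower. Lung values were uneven, from 0.12 for Sftpb to 3.64 for Sftpc, which read 11.30 on the KO array and 7.65 on the WT array. Heart markers had a median of 0.17, with none of 6 called and Nppa and Myh6 under the floor on both arrays. Of the 6 brown fat markers above the floor 5 were below 0 and 2 were called lower (median -0.29, summed signal 4069.9 on the KO array and 7765 on the WT array). The 2 called were Cidea (-0.67) and Cox7a1, which muscle also expresses. The sum includes Cox7a1, at 9.70 on the KO array and 11.69 on the WT array. Fabp4 was at -0.48, Prdm16 at -0.09 and Elovl3 at 0.07. Ucp1, the defining gene, stood at 5.70 on the KO array and 5.75 on the WT array, just above the floor. Other medians were -0.28 for erythroid cells (1 of 5 lower), -0.22 for endothelium (1 of 7 lower), 0.03 for fibroblasts (none of 9 called) and 0.05 for smooth muscle (2 of 6 lower and 1 higher). The part of these tissues in the members' difference was not tested, and in bulk RNA fewer muscle fibres and less of a transcript per fibre cannot be told apart.

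**Figure D4:**
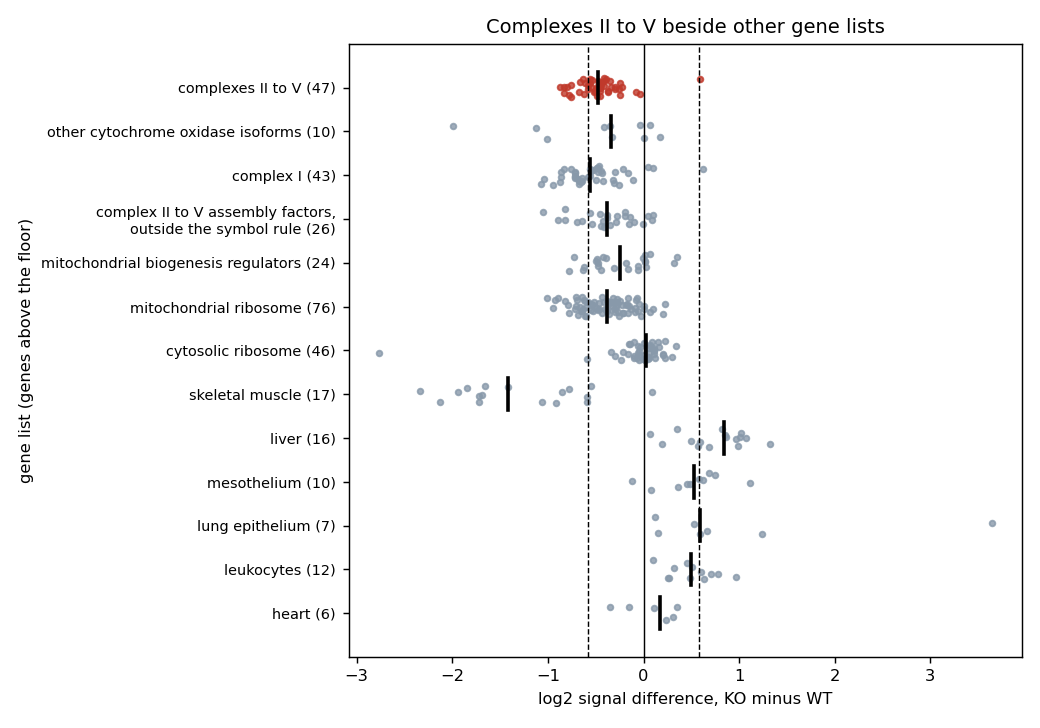
Log2 signal difference, KO minus WT, of the genes above the floor in each list, 1 point per gene from its brightest probe set, with the number of genes in brackets; thick bars are list medians and dashed lines mark 1.5-fold. Complexes II to V (top row, median -0.48) lie with complex I (-0.56) and the mitochondrial ribosome (-0.38), skeletal muscle markers lie further left (-1.42), and liver markers lie to the right (0.84).

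The median log2 signal was 6.03 on the KO array and 6.02 on the WT array. Quantile normalisation, a step of RMA, makes these medians alike by construction. Zbtb18, the targeted gene, read 9.21 on the KO array and 8.91 on the WT array. The labels do not say whether its probe set covers the deleted part, so this value leaves the genotype labels unchecked and every direction rests on them. The hybridisation controls had a median difference of -0.04 over 18 probe sets. The poly-A controls had -0.66 over 27 probe sets, of which the 3 for trp were under the floor and near 0.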

How the data were processed

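Total RNA from 1 KO and 1 WT diaphragm sample was profiled on Affymetrix arrays. The authors deposited log2 signals for 45101 probe sets, computed with RMA per the design text; the submitters' processing notes list Affymetrix Expression Console 1.1. Quantile normalisation, a step of RMA, removes any difference in total mRNA, and RMA compresses differences of very dim and very bright probe sets.

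Of the probe sets, 34945 carried 1 symbol in the platform annotation, 932 several, 9160 none here, and 64 were controls; only those with 1 symbol were used. All 48 members were found by Entrez identifier in a RefSeq table of GRCm38.p6 and no symbol changed. Groups came from the genotype label. Differences, counts and medians were computed with Python 3.11.15, pandas 2.3.3 and numpy 2.4.6, and loess (fraction 0.3) with statsmodels 0.14.6. No test was run and no p-value is given, because each group holds 1 array. The functions were tested on simulated data with known changes. The members, lists and thresholds were chosen with earlier results of these data known. Named genes are every member, genes of the oxidase, assembly factor and regulator lists that passed 1.5-fold, the first 4 others of each in list order, and the extremes of other lists; all further genes (such as Cox8a, Atpif1, Alb and Ucp1) and the motifs were picked with their values in view.

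The alternatives were the mean over probe sets, other floors, leaving out _s_at, _x_at and _a_at probe sets, median and loess centring, scaling to spike-ins, other fold limits, and leaving out testis isoforms.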

Additional observations from a re-analysis of the deposited data

How the results depend on the processing

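The members' median stayed between -0.49 and -0.43, and 10 to 15 members were lower by 1.5-fold, under the mean over probe sets, no floor, a floor at the 60th percentile, no _s_at, _x_at or _a_at probe sets (which left 37 members), median or loess centring, scaling to hybridisation controls, and leaving out testis isoforms. The last took the count of higher members to 0. Without _s_at, _x_at and _a_at probe sets Atp5c1 was at 0.20 and Cox5b at 0.08, each then read from a dim probe set, while Cycs was at -1.28, Uqcr10 at -1.25, Uqcrb at -0.91 and Uqcrq at -0.87, which puts Cycs and Uqcr10 beyond 2-fold. At 2-fold and the brightest probe set 0 members were lower and 0 higher, and at a limit of 0.32 on the log2 scale 38 were lower. Poly-A scaling turned the directions: 0 members were lower, 3 higher and 8 below 0, with a median of 0.19, where all genes had 0.66, 61.0% of them higher and 1.48% lower. This scaling adds 1 constant to every gene, so it leaves the gap between members and all genes as it was by construction. Called members that changed sign were Atp5o (0.00341), Cycs (0.0781), Sdha (0.0353), Sdhb (0.0303) and Uqcrc2 (0.0548). Without the trp probe sets, an alternative added after the data were seen, 0 were lower, 3 higher and 7 below 0, with a median of 0.27 (all genes 0.74, 70.9% of them higher), and the values were 0.0883 for Atp5o, 0.0749 for Cox17, 0.16 for Cycs, 0.12 for Sdha, 0.12 for Sdhb and 0.14 for Uqcrc2. The sources used here do not say when these controls were added. No paired analysis was possible because each genotype has 1 array.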
